A study of Mus musculus with 7 samples.

Results

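A group of 10 genes of the Notch pathway was followed across the 7 arrays of the series. They were taken by symbol from the annotation of the probe sets and were the receptors Notch1, Notch2, Notch3 and Notch4, the ligands Dll1, Dll4, Jag1 and Jag2, and the target genes Hes1 and Hey1. All 10 members had 1 probe set each, and they are 10 of the 19938 genes with a probe set that carried a single symbol. The arrays measured total RNA from cultured mouse cells, and the values are log2 expression values, so that 1 unit is a 2-fold difference. B16F10 is a pigmented mouse melanoma line. Parental B16F10 and clone A1 were labelled PECAM1- (n = 2), and the 4 clones A2 to A5 of the same line were labelled PECAM1+ (n = 4). The labels record the status of PECAM1, a cell adhesion protein found on endothelium and blood cells. A single array held mouse dermal endothelial cells (MDEC), labelled PECAM1+. No agent other than the culture media was named. B16F10 and its clones grew in DMEM with FBS, and MDEC grew in DMEM with an endothelial growth supplement, so the medium and the cell type cannot be told apart in any difference between them. Each clone is a single line, and the labels do not say whether the clones arose independently or whether samples of a group were separate cultures. The p-values therefore cover only how far these samples vary, and that variation may be technical.

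Notch receptors are single-pass membrane proteins that are activated by ligands of the Delta and Jagged families on a neighbouring cell. Ligand pulling exposes the receptor to an ADAM protease and then to gamma-secretase, and the freed intracellular domain enters the nucleus, binds the DNA-binding protein RBPJ with a Mastermind coactivator, and switches on targets such as the Hes and Hey repressors. In endothelium the pathway is known for choosing tip and stalk cells during sprouting and for arterial identity, with Dll4, Notch1 and Notch4 as typical endothelial members. In the melanocyte lineage it is known for the upkeep of melanoblasts and melanocyte stem cells.

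The members Notch1, Notch4, Dll4 and Jag1 were far higher in MDEC, on 1 array, than on any B16F10 array, and their proximal promoters are shown for that reason. Within B16F10 they did not move together. Clone A1 minus parental cells was -0.86 for Notch1 and -0.38 for Notch4, but 0.26 for Jag1 and 0.33 for Dll4. Shared regulation was not tested. RefSeq promoters (GRCm38.p6) matched 8 of the 10 members, all but Hes1 and Hey1, with 2 start sites for Dll1. The sequences below are the 250 bases before the annotated start, 5′ to 3′ on the gene's strand, in lower case, with matches in capitals to any of the following motifs, searched on both strands: TGGGAA (the RBPJ core), AGGAAG (an ETS core), CACGCG (the class C site of Hes and Hey proteins) and CACNAG (the N box of Hes proteins).
Notch1, chr2:26503823-26504072, - strand: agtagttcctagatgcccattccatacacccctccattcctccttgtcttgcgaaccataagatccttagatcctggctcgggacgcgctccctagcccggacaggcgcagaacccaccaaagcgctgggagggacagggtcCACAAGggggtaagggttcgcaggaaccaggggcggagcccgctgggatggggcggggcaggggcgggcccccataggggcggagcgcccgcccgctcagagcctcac
Notch4, chr17:34564045-34564294, + strand: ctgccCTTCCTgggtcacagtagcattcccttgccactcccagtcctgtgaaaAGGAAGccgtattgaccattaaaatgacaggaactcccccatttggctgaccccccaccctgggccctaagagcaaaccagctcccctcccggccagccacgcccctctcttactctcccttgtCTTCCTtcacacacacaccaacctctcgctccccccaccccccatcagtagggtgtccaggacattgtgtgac
Dll4, chr2:119325534-119325783, + strand: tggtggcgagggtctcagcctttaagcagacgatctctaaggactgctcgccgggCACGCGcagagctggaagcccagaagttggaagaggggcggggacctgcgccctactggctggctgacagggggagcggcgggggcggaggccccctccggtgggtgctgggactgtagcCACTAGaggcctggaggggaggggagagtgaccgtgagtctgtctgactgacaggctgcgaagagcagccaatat
Jag1, chr2:137116521-137116770, - strand: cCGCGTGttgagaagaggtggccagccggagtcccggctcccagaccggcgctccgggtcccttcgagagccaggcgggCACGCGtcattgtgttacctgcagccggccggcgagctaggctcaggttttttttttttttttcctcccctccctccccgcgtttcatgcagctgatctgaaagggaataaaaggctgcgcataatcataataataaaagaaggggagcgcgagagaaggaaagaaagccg
The 6-base ETS core was found 3 times before Notch4 and 0 times before Notch1, Dll4 and Jag1. Only the exact letters AGGAAG were searched. The shorter GGAA within them stands in each of these windows, so a count of 0 does not mean that ETS sites are absent. A class C site was found before Dll4 (195 to 190 bases before the start) and 2 times before Jag1, and an N box before Notch1 (108 to 103) and Dll4 (75 to 70). No RBPJ core lay in any of these windows, and no matches overlapped. The same motifs were also found before members that were not called in MDEC. A class C site stood before Notch2 (42 to 37) and Dll1 (68 to 63), and an ETS core before Dll1 (14 to 9). An N box stood before Notch2 (247 to 242) and 2 N boxes before Notch3. The window of Jag2 held no match. Of 32851 RefSeq promoters searched over the same length, 21.6% held the RBPJ core, 29.5% the ETS core, 7.62% the class C site and 36.7% the N box. GC content of the windows was 66.0% for Notch1, 65.6% for Dll4, 57.2% for Jag1 and 58.4% for Notch4, against a median of 52.4% over all promoters. The members not called in MDEC that had a promoter entry were above that median as well, with 87.2% for Jag2, 72.0% for Notch2, 68.8% for Notch3, and 64.0% and 56.0% for Dll1.

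The labels were checked on Pecam1 and on lineage markers. Pecam1 was 5.27 in parental B16F10 and 5.43 in A1, against 11.03 ± 0.03 (SD, n = 4) in the PECAM1+ clones and 11.72 in MDEC. Of 14 endothelial markers, 12 were at least 4-fold higher in MDEC, while Vwf, at 6.41, lay below all 6 B16F10 arrays. Their summed log2 level was 142.61 in MDEC and 75.30 to 76.51 in the PECAM1+ clones, with 76.48 in parental cells and 75.83 in clone A1. Of 10 melanocyte markers, 9 were at least 4-fold lower in MDEC, with a summed level of 57.47 there and 107.89 to 115.38 in the PECAM1+ clones. No marker of fibroblasts and mural cells (10) or of keratinocytes (6), and 1 of 8 of leukocytes and platelets (Cd68), was called in MDEC. The summed level of the fibroblast and mural list was 56.98 in MDEC and 57.92 to 60.74 in the PECAM1+ clones. Clone A1 stood apart from the other B16F10 arrays, where 1310 genes differed 2-fold or more from the PECAM1+ mean, against 131 for parental cells. In cell populations such as these, fewer cells that use a gene and less RNA per cell cannot be told apart.

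The MDEC array gave the level of each gene in endothelial cells. With 1 MDEC array there was no test, and a gene was called where MDEC lay beyond every B16F10 array and at least 4-fold (2 log2 units) from the B16F10 level, taken as the mean of the PECAM1- and PECAM1+ means. By this rule 4 of the 10 members were higher in MDEC and 0 lower, where 4.73% of all genes were called, 2.72% higher and 2.01% lower. The 4 were receptors and ligands, and neither target gene was among them. At a 2-fold threshold 6 members were called, with Dll1 and Hes1 added, where 13.3% of all genes were, and at an 8-fold threshold 0 were, where 2.17% of all genes were. MDEC lay beyond every B16F10 array for 8 members (52.9% of all genes) and above every one for 6 (26.5% of all genes). The median difference of the members was 1.23, against 0.00 for all genes.

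**Figure D1:**
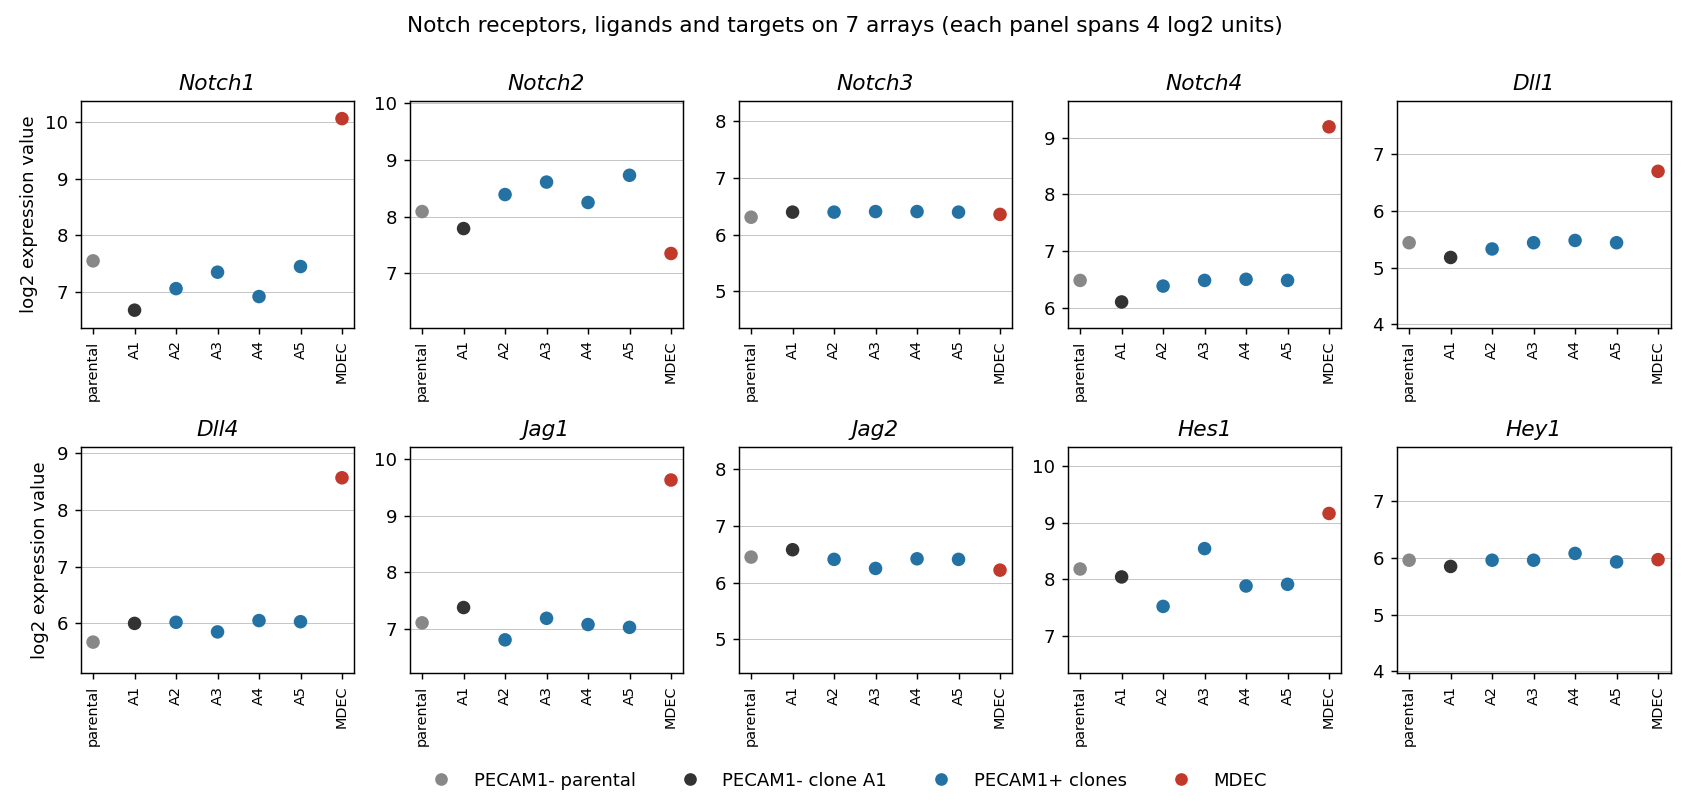
Log2 expression value (vertical axis) of each of the 10 members on the 7 arrays (horizontal axis), 1 point per array, with parental cells in light grey, clone A1 in dark grey, PECAM1+ clones in blue and MDEC in red; each panel has its own position but the same span. MDEC lies above all B16F10 arrays for Notch1, Notch4, Dll1, Dll4, Jag1 and Hes1, below them for Notch2 and Jag2, and among them for Notch3 and Hey1.

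Among the receptors, Notch1 and Notch4 were high in MDEC, Notch2 was low and Notch3 was level. Notch1, the broadly used receptor of endothelium, was 7.55 in parental B16F10, 6.68 in A1, 7.06, 7.35, 6.92 and 7.45 in clones A2 to A5, and 10.06 in MDEC. MDEC thus lay 2.51 above the highest B16F10 array and 2.91, or 7.49-fold, above that B16F10 level. Notch4, a receptor found mainly in endothelium, was 6.48 in parental B16F10, 6.10 in A1, 6.38, 6.48, 6.50 and 6.48 in clones A2 to A5, and 9.19 in MDEC, a difference of 2.82 or 7.06-fold. The B16F10 arrays spanned only 0.40 for Notch4, and its 4 highest B16F10 values lay within hundredths of each other. Notch2 was the only receptor for which MDEC lay below all B16F10 arrays, at 7.35, where B16F10 held 8.09 in parental cells, 7.79 in clone A1 and 8.39, 8.61, 8.25 and 8.73 in clones A2 to A5. The difference of -0.86 (1.82-fold lower) was short of the 4-fold rule. Notch3, the receptor of mural cells, was 6.31 in parental B16F10, 6.40 in A1, 6.40, 6.41, 6.41 and 6.40 in the PECAM1+ clones and 6.36 in MDEC. No array stood apart by more than 0.10. All these Notch3 values lay below 6.69, the median level over all genes, and signal over background is unknown, so they need not mean equal expression.

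Of the ligands, Dll4 and Jag1 were called higher in MDEC and Dll1 was higher without being called. Dll4, the Delta ligand of sprouting endothelium, was 5.67 in parental B16F10, 6.00 in A1, 6.02, 5.85, 6.05 and 6.03 in clones A2 to A5, and 8.57 in MDEC, a difference of 2.66 or 6.32-fold. Jag1, a Jagged ligand of endothelial and many other cells, was 7.11 in parental B16F10, 7.38 in A1, 6.81, 7.19, 7.08 and 7.03 in clones A2 to A5, and 9.63 in MDEC, a difference of 2.50 or 5.65-fold. For both, the gap to the nearest B16F10 array (2.52 and 2.26) was several times the whole B16F10 range (0.39 and 0.57). Dll1, a Delta ligand of developing tissues, was 5.44 in parental B16F10, 5.18 in A1, 5.33, 5.44, 5.48 and 5.44 in clones A2 to A5, and 6.70 in MDEC, 2.52-fold above B16F10. Jag2 went the other way by a small amount, with 6.22 in MDEC against 6.45 in parental cells, 6.58 in clone A1 and 6.41, 6.25, 6.42 and 6.41 in clones A2 to A5. The nearest array, clone A3, was within hundredths of MDEC for Jag2.

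The Hes and Hey targets differed from each other. Hes1, a repressor of the Hes family induced in many tissues, was 8.18 in parental B16F10, 8.04 in A1, 7.52, 8.54, 7.88 and 7.91 in clones A2 to A5, and 9.16 in MDEC. Its difference of 1.12 (2.18-fold) was not called, and MDEC was only 0.61 above clone A3. Hey1, a Hey family repressor of endothelium and other tissues, was 5.96 in parental B16F10, 5.85 in A1, 5.96, 5.96, 6.08 and 5.93 in clones A2 to A5, and 5.97 in MDEC. MDEC therefore lay inside the B16F10 range for Hey1. Every Hey1 value was below 6.69, the median level over all genes, and signal over background is unknown. Of the other 11 genes listed with the Hes and Hey targets, 1 was called higher in MDEC and 2 lower. Nrarp, a target that feeds back on the Notch complex, was at 9.71 in MDEC and 5.40 to 5.71 in B16F10, 17.7-fold higher. Bhlhe41 and Bhlhe40, related repressors with roles in the circadian clock, were 10.7-fold and 5.46-fold lower in MDEC. Hey2 was at 4.18 in MDEC and 4.31 to 4.95 in B16F10, and Heyl at 6.32 against 6.30 to 6.38.

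Beyond the members, 96 of 100 further genes listed for the pathway and for arterial and venous endothelium were measured. Of these, 12 (12.5%) were called in MDEC, 9 higher and 3 lower, where 4.73% of all genes were called, 2.72% higher and 2.01% lower. The median difference of the 96 was 0.06, against 0.00 for all genes. Among 6 genes for glycosylation of the receptors, Mfng, a Fringe enzyme that alters which ligands a receptor answers to, was at 10.80 in MDEC and 5.93 to 6.17 in B16F10, 26.6-fold higher. Its relatives Lfng and Rfng had differences of 1.40 and -1.18, neither called. Egfl7, a secreted endothelial protein that can bind Notch and the 1 of 6 noncanonical ligands called, was 19.2-fold higher in MDEC. Of 9 genes for receptor cleavage, 1 was called, Aph1c, a gamma-secretase subunit, at 7.36 in MDEC against 9.18 to 10.67 in B16F10. None of 10 genes of the nuclear complex, 11 corepressors, 19 genes of endocytosis and turnover or 8 other targets was called, Kat2b coming nearest with a difference of -1.93. In the arterial list 4 of 11 were called higher, namely Cxcr4 (5.26), Sox18 (4.13), Efnb2 (2.82) and Unc5b (2.39), while the arterial connexin genes Gja4 and Gja5 were at 5.24 and 5.02 in MDEC, inside the B16F10 ranges. In the venous list Flt4 (3.70) and Ephb4 (2.65) were called higher, 2 of 5, and Nr2f2, the venous regulator, had a difference of -0.53. The arterial and venous lists were made up of endothelial genes by choice, and they gave 4 and 2 of the 12 calls. Egfl7, called among the noncanonical ligands, was also on the list of endothelial markers. The share of 12.5% is therefore not a measure of the Notch pathway alone.

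**Figure D2:**
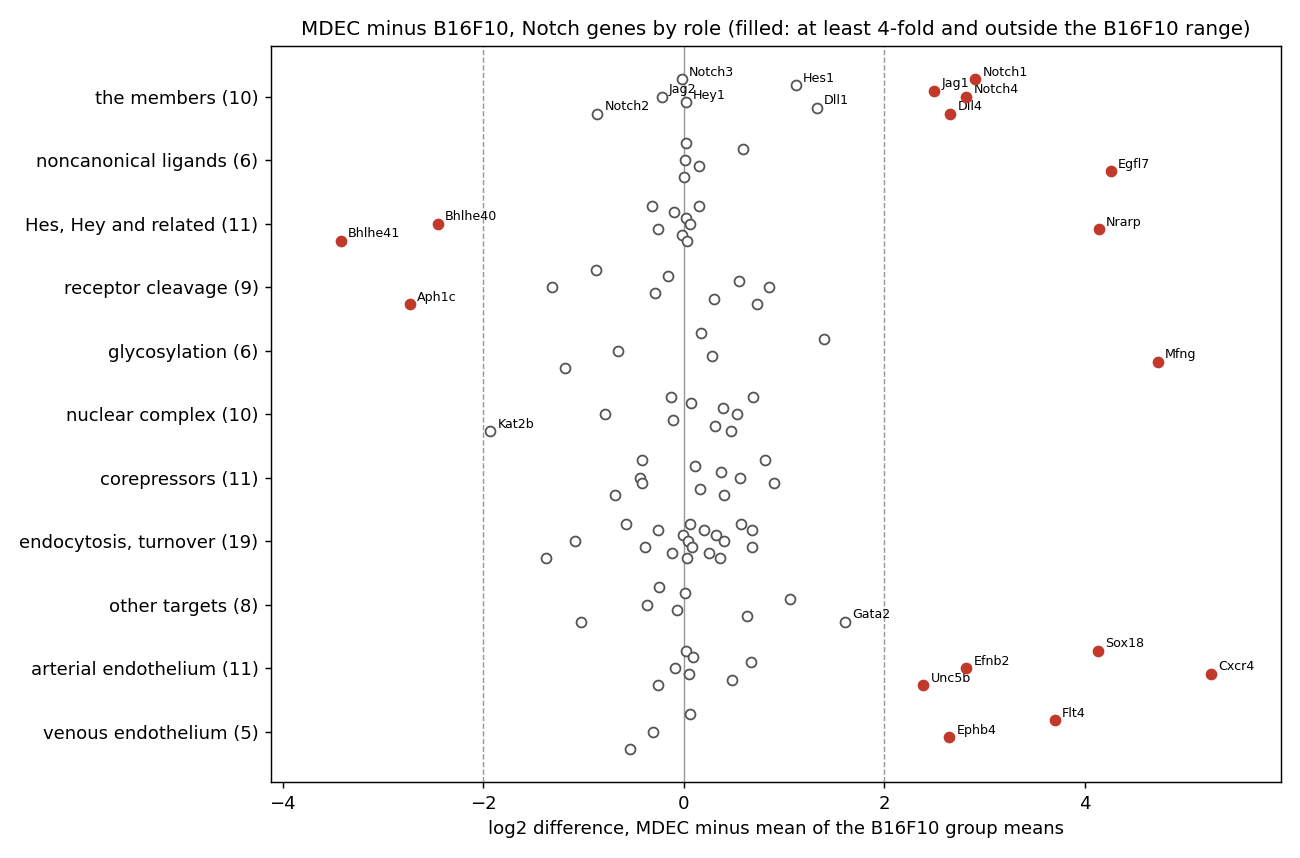
Log2 difference between MDEC and the B16F10 level (horizontal axis) for the 10 members and for the other genes by role (rows, number measured in brackets), 1 point per gene, filled red where at least 4-fold apart and outside the B16F10 range; dashed lines mark 4-fold, and Hey2 stands in the Hes and Hey row and in the arterial row. The filled points on the right hold Notch1, Notch4, Dll4 and Jag1 beside Egfl7, Nrarp, Mfng and arterial and venous genes, and 3 genes are filled on the left.

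The comparison of PECAM1+ clones with PECAM1- samples asked whether the Notch genes differed with PECAM1 status within the melanoma line. By limma 0 of 10 members were called over the 19938 genes tested, where 0.0100% of all genes were called. At an unadjusted p under 0.05, 1 member passed (9.18% of all genes), and for 2 members the groups did not overlap (16.4% of all genes). The median difference of the members was 0.08, with 7 higher and 3 lower. The member with the smallest p was Notch2, which was between 8.25 and 8.73 in the PECAM1+ clones (mean 8.49 ± 0.21, SD, n = 4) and at 8.09 and 7.79 in the PECAM1- samples. All 4 PECAM1+ clones were above both PECAM1- samples, a difference of 0.56 ± 0.17 (SE, 1.47-fold), and it was not called (limma adjusted p = 0.453). Jag2 was the other member without overlap, at 6.37 ± 0.08 (SD, n = 4) against 6.45 and 6.58. Its difference of -0.14 ± 0.07 (SE) did not pass either (limma adjusted p = 0.537), and its upper value, 6.42 in clone A4, lay close to parental cells. The 95% intervals of the difference ran from -0.62 to 0.78 for Notch1, from -0.85 to 0.56 for Hes1 and from -0.07 to 0.23 for Hey1. Differences of that size in either direction could not be told from 0 with 4 and 2 arrays.

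Parental cells alone and clone A1 alone gave different pictures, and both fits assume that the lone sample varies like the PECAM1+ clones. These 2 comparisons share the same 4 PECAM1+ arrays. Against parental cells 0 of 10 members were called by limma (0.0100% of all genes), and 2 had an unadjusted p under 0.05 (13.5% of all genes). Groups did not overlap for 5 members, where 42.7% of all genes did not. Dll4 was 0.32 ± 0.09 (SE) above parental cells (limma adjusted p = 0.293), with all 4 clones higher. Notch3 differed by 0.10 ± 0.03 (SE, limma adjusted p = 0.288), a step of 1.07-fold. Notch1, at 7.55 in parental cells, was lower in all 4 clones, with a difference of -0.35 ± 0.24 (limma adjusted p = 0.701).

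Against clone A1, 1 of 10 members was called by limma, where 20.5% of all genes were called, 9.33% as higher and 11.2% as lower. At an unadjusted p under 0.05, 3 members passed, and 34.2% of all genes did. The member called was Notch4, higher in the PECAM1+ clones by 0.36 ± 0.06 (SE, 1.28-fold), with 6.10 in clone A1 and at least 6.38 in each clone. Parental cells, also PECAM1-, were at 6.48, against a mean of 6.46 in the clones, so the step did not follow PECAM1 status. These B16F10 values all lay below 6.69, the median level over all genes, and their signal over background is unknown. The call was lost without clone A3, A4 or A5 (limma adjusted p from 0.0566 to 0.0816), the difference staying at 0.35 to 0.36, and 1 of the 6 pairs among the 4 PECAM1+ clones held an identical Notch4 value, which can make the spread too small. Dll1 (0.24 ± 0.06 SE, limma adjusted p = 0.0772), Notch2 (0.71 ± 0.21, 0.0985) and Notch1 (0.51 ± 0.24, 0.239) were also lower in clone A1 than in all 4 clones without being called. Notch2 passed with quantile normalization (limma adjusted p = 0.0405) and when dim genes were left out (0.0416), and Dll1 passed without clone A2 (0.0276). Jag1 went the other way, at 7.38 in clone A1 and 6.81 to 7.19 in the clones (limma adjusted p = 0.224). In all, groups did not overlap for 7 members, where 59.9% of all genes did not. Some markers of leukocytes and platelets differed in clone A1 as well. The summed log2 level of that list was 45.45 there, 42.58 to 43.06 in the PECAM1+ clones and 42.37 in parental cells, the excess lying in Cd68 and Itga2b. Of the 8 measured, Cd68, a macrophage lysosomal protein (10.07 in clone A1, mean 8.07 in the clones, limma adjusted p = 0.00312), and Itga2b, the platelet integrin chain (7.38 against 6.19, limma adjusted p = 0.0041), were higher in clone A1, and Pf4, a platelet chemokine, was lower (3.17 against 3.53, limma adjusted p = 0.00523). Ptprc, the defining leukocyte gene CD45, was 4.99 in clone A1 and 4.96 to 5.15 in the clones. Adgre1 (3.77 in clone A1, mean 3.78 in the clones), Csf1r (5.04 against 5.09), Itgam (4.73 against 4.71) and Cd3e (6.30 against 6.41) were nearly level too. The other marker lists gave 1 call against clone A1, Tie1 among the 14 endothelial markers. The part of these markers in the differences of the Notch genes was not tested.

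**Figure D3:**
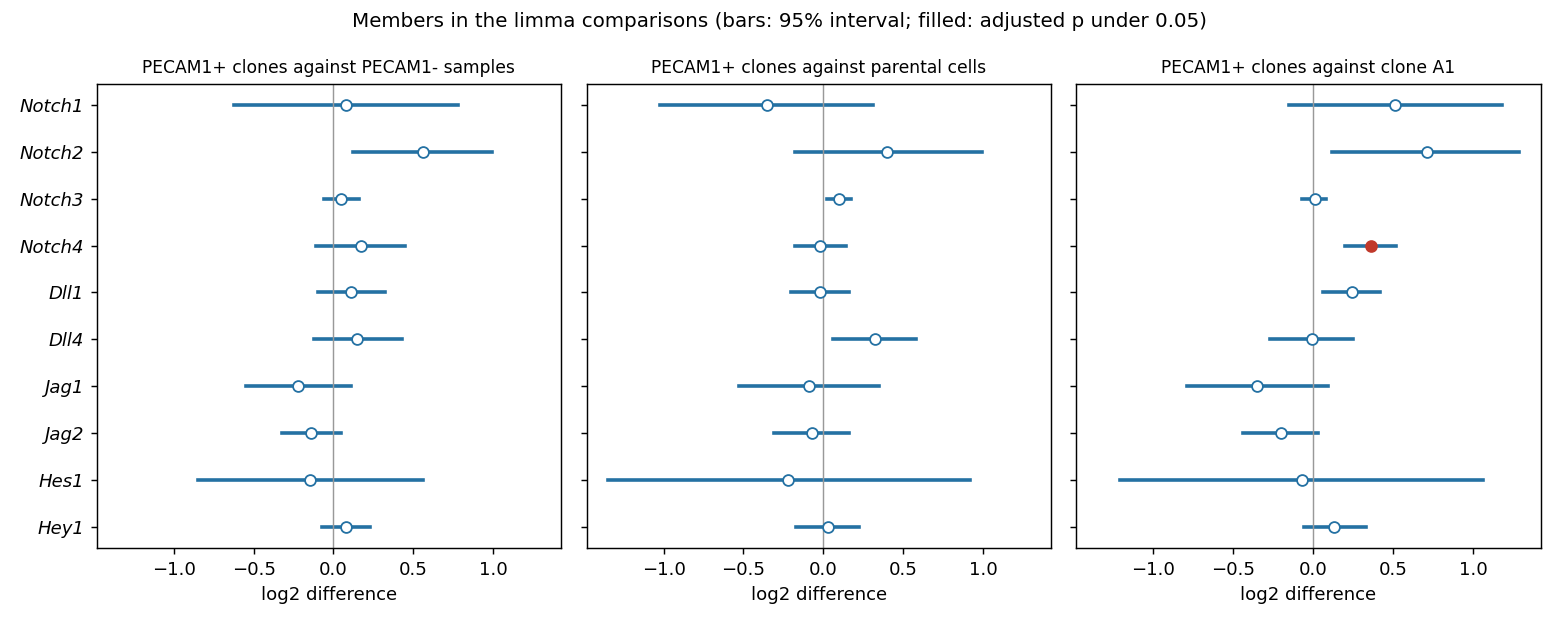
Log2 difference of the mean of the PECAM1+ clones from both PECAM1- samples (left), parental cells (middle) and clone A1 (right) for the 10 members, with 95% intervals from limma as bars and a filled red point where the adjusted p is under 0.05. Only Notch4 against clone A1 is filled, and Notch2 lies right of 0 in all panels, at 0.56, 0.40 and 0.71. The panels share the PECAM1+ arrays, and each left value is the mean of the middle and right ones, so they are not separate findings.

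Of the 96 other listed genes, 0 were called by limma against both PECAM1- samples, where 0.0100% of all genes were called. At an unadjusted p under 0.05, 9 of the 96 passed that limma comparison, close to the 9.18% of all genes that did. Against parental cells alone the median difference of the 96 was -0.03, against 0.00 for all genes. Against clone A1, 20 (20.8%) were called, close to the 20.5% of all genes, 6 with higher and 14 with lower values in the PECAM1+ clones. Corepressors gave 6 of 11, of which Tle1 (-0.89 ± 0.16 SE), Tle4 (-0.89 ± 0.17), Kdm5a (-0.82 ± 0.06), L3mbtl3 (-0.76 ± 0.12) and Cir1 (-0.45 ± 0.07) were lower and the histone deacetylase gene Hdac2 was higher (0.72 ± 0.11), with limma adjusted p from 0.00512 to 0.0367. Tle1 and Tle4, Groucho corepressors used by Hes and Hey proteins, were also lower than parental cells in every PECAM1+ clone, by -0.65 and -0.44 on average, neither called. Genes of endocytosis and turnover gave 6 of 19, all lower, among them Mib2, a ubiquitin ligase that acts on Notch ligands (-0.99 ± 0.07 SE), Dtx3 (-0.86 ± 0.08) and Numb, an inhibitor of Notch (-0.77 ± 0.12), with limma adjusted p from 0.00511 to 0.0466 over the 6. The cyclin D1 gene Ccnd1 had the largest difference of the listed genes, 2.24 ± 0.23 (SE, limma adjusted p = 0.00955), at 9.08 in clone A1 and 11.09 to 11.60 in the clones. Ephb4, the venous ephrin receptor, was 6.73 in parental B16F10, 6.69 in A1 and 7.36 to 7.69 in the PECAM1+ clones, and passed against clone A1 (0.76 ± 0.16 SE, limma adjusted p = 0.0426). The part that the wide difference of clone A1 has in these counts was not tested. Leaving out clone A3 or clone A5 brought the 20 calls down to 6.

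**Figure D4:**
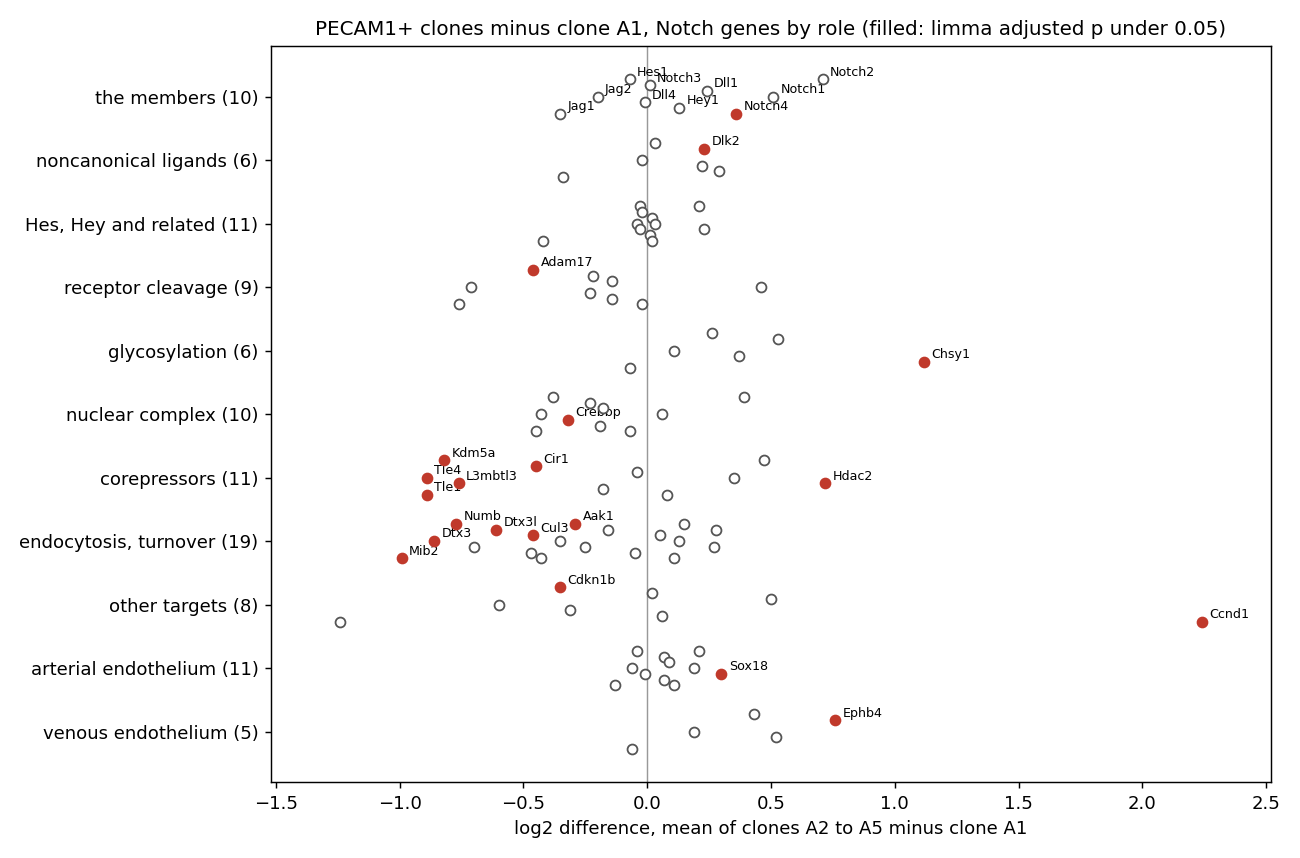
Log2 difference of the mean of clones A2 to A5 from clone A1 (horizontal axis) for the 10 members and the other genes by role (rows, number measured in brackets), 1 point per gene, filled red where the limma adjusted p is under 0.05. Filled points lie mostly left of 0 among corepressors and genes of endocytosis and turnover, and Ccnd1 lies farthest right at 2.24.

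The members varied unequally among the PECAM1+ clones. Hes1 had the widest spread, with an SD of 0.42 (n = 4) that only 1.54% of all genes exceeded, against a median SD of 0.10. Clone A3 was highest for Hes1 at 8.54 and clone A2 lowest at 7.52, so that parental cells and clone A1 lay between the clones. Notch1 (SD 0.25) and Notch2 (SD 0.21) came next, exceeded by 7.23% and 10.8% of genes, and both were lowest in clone A4 and highest in clone A5. The Notch3 values were nearly fixed, with an SD of 0.01 that 95.6% of genes exceeded. They lay below 6.69, the median level over all genes, and with signal over background unknown this need not be steady expression. Across the 6 B16F10 arrays, clone A1 was lowest for Notch1, Notch2, Notch4, Dll1 and Hey1 and highest for Jag1 and Jag2. With the B16F10 arrays of each member in order of level, 33 of 50 steps between neighbours were no larger than the SD of the PECAM1+ clones. For Hes1 this held for all 5 steps, for Notch1 for all but the step from clone A2 to A3, and for Notch2 for all but those from clone A1 to parental cells and from clone A2 to A3. The SD came from 4 of the same 6 arrays, so the steps and the SD are not independent. The count was not made for all genes, and nothing particular to the members is drawn from it.

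Genes with the most similar pattern were found from log2 values centred on each gene's mean, as the smallest root mean square difference (RMSD, in log2 units). Over all 7 arrays, Asb4 (RMSD 0.04), Simc1 (0.06) and P3h4 (0.06) lay nearest to Notch4, and P3h4 was also among the 3 nearest to Notch1 (0.20), after Ehd2 (0.16), which encodes a membrane-shaping ATPase of caveolae, and Mthfd2l (0.19). Nearest to Dll4 were Pik3cg (0.08), a PI3-kinase catalytic subunit, Arhgef15 (0.10) and Arhgap28 (0.10). Nearest to Jag1 were the growth factor gene Pdgfc (0.10), Jcad (0.12), a junction protein of endothelium, and Fgd5 (0.13). These patterns are set mostly by the MDEC array. Over the 6 B16F10 arrays alone, Echs1, a mitochondrial enzyme of fatty acid oxidation, followed Notch2 within 0.05, with 9.27 in parental B16F10, 9.05 in A1 and 9.52, 9.76, 9.37 and 9.90 in clones A2 to A5. Tmem70 (0.09) and Aspg (0.09) were next for Notch2. Ctxn1 (0.09), Milr1 (0.10) and Senp8 (0.10) lay nearest to Notch1, and Havcr2 (0.11), Neurl3 (0.14) and Ppm1e (0.14) nearest to Hes1.

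By position, Notch1, Dll4 and Jag1 lie on chromosome 2, Notch2 and Hey1 on chromosome 3, and Notch3, Notch4 and Dll1 on chromosome 17 of the RefSeq gene table. Median differences of all genes on these chromosomes lay between -0.02 and 0.02 in every comparison. For the 940 genes of chromosome 17 the median difference from clone A1 was 0.01, against 0.36 for Notch4.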

How the data were processed

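Total RNA was labelled with biotin and hybridised to Affymetrix Mouse Gene 1.0 ST arrays, 1 per sample. The deposited values are log2 expression values for 35557 probe sets, and the submitters' processing notes name Partek. Summarisation, background correction, normalization and genome build: not given in the sources used here. The log2 scale was read from the values, with array medians from 6.12 to 6.18. No detection calls were used, which leaves signal over background unknown, and a difference at low values may be understated. Of the probe sets, 21789 carried 1 gene symbol, 1621 several and 12147 none in the platform annotation. The probe set with the highest mean stood for a gene, which left 19938 genes.

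Comparisons within B16F10 used limma 3.58.1 in R 4.3.3 (lmFit, eBayes with trend), two-sided. P-values were adjusted over all genes by Benjamini-Hochberg, and 0.05 was the cut-off. The B16F10 fits left MDEC out. The procedure was tried first on simulated data. Planted changes of 1 log2 unit were recovered for 27% of genes against both PECAM1- samples, 2% against parental cells and 1% against clone A1. For 2 log2 units these shares were 97%, 57% and 70%. The simulated spread need not match that of each gene here. A member that was not called is therefore not shown to be unchanged. Alternatives were quantile normalization, median centring, a filter on dim genes, robust and untrended eBayes, array weights (both PECAM1- samples), other probe set rules, MDEC in the fit, each sample left out, and for MDEC other folds and the median of B16F10. The members and the 12 gene lists were chosen with earlier results of these data known. Named genes were the members, Pecam1, up to 3 genes per list and comparison with the largest absolute difference, and the nearest genes in pattern. Markers and other list genes named beside them, and the motifs, were chosen after values or sequences were seen. The other 4 of the 100 listed genes were not analysed here.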

Additional observations from a re-analysis of the deposited data

Results flagged for a closer look

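In each case below 1 of the 4 PECAM1+ clones lay far from the other 3 relative to the range of the 4 values. Such a gap was seen for 2 of 10 members and 11 of 58 other named genes. The cut-off is one that chance passes in about 1 in 20 groups of normally distributed values. Equal values between clones, as found here, make that rate too low, and the share over all genes was not computed. These counts are therefore not read as an excess. Several of these gaps are small steps among clones whose remaining values were equal or almost equal. Among the members, clone A3 was low for Dll4 (5.85, the others 6.02 to 6.05) and for Jag2 (6.25, the others 6.41 to 6.42).

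Among the other genes, clone A3 was high for the netrin receptor gene Unc5b (7.60, the others 6.73 to 6.74) and low for Cdkn1b (10.12, the others 10.19). Clone A4 was high for Hey2 (4.95, the others 4.38 to 4.39), Gja5 (5.36, the others 5.15 to 5.16) and Aak1 (9.68, the others 9.59), and low for Rbpj (9.05, the others 9.37 to 9.40). Clone A2 was high for Ephb4 (7.69, the others 7.36 to 7.39) and Tle4 (7.54, the others 7.17 to 7.23). It was low for Efnb2 (5.18, the others 5.35 to 5.38), Dlk2 (6.72, the others 6.78) and Dll3 (5.24, the others 5.33).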

How the results depend on the processing

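The 4 members called in MDEC were 4 under other scalings, other references and with any B16F10 sample left out, and 0 at an 8-fold threshold. For each of the 4, MDEC lay at least 2.26 log2 units above every B16F10 array. No reference within the B16F10 range and no omitted B16F10 sample could therefore have lost a call. The single MDEC array could not be varied. Among the other 96 genes, 12 were called in MDEC (4.73% of all genes), 20 at a 2-fold threshold (13.3% of all genes) and 7 at an 8-fold threshold (2.17% of all genes). Against both PECAM1- samples 0 members were called, and leaving out 1 sample gave 0 to 1 members and 0 to 20 other genes, the higher counts without parental cells. Against clone A1, 1 member was called, 2 with quantile normalization (Notch2 added), and 0 to 2 with a PECAM1+ clone left out. When dim genes were left out Notch4 was not tested and Notch2 was the member called. The 20 other genes called against clone A1 became 31 when dim genes were left out, where fewer genes were tested, and 6 to 22 with a PECAM1+ clone left out.

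Small differences turned direction, and none of them was called in the fit with all samples. Leaving out 1 PECAM1- sample gave the same fit as the comparison with parental cells alone or clone A1 alone. Results of those omissions are therefore not additional to these comparisons. Why the samples differ was not tested. With 1 sample left out of the fit against both PECAM1- samples, Notch1 ran from -0.35 (without clone A1) to 0.51, Notch4 from -0.02 to 0.36, Dll1 from -0.02 to 0.24, Dll4 from -0.01 to 0.32 and Hes1 from -0.34 to 0.00. With a PECAM1+ clone left out, the difference from parental cells ran from -0.03 to 0.01 for Notch4, from -0.04 to 0.01 for Dll1 and from -0.01 to 0.05 for Hey1. The difference from clone A1 ran from -0.03 to 0.03 for Dll4 and from -0.27 to 0.07 for Hes1. Notch3 against clone A1 turned to -0.04 with quantile normalization and -0.02 with median centring. The number of arrays limits the precision of every value, and no paired analysis was possible because the labels give the groups no shared replicate numbers.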

Other observations

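Id3, an inhibitor of basic helix-loop-helix factors listed among other Notch targets, varied widely within B16F10. It was 7.45 in parental B16F10, 9.73 in A1, 7.15 in clone A2, 9.18 in clone A3, 9.60 in clone A4 and 8.02 in clone A5, with 7.51 in MDEC. Clones A1, A3 and A4 were thus well above the other arrays, and the order did not follow PECAM1 status. It differed by 1.04 from parental cells and by -1.24 from clone A1 and did not pass limma in either fit.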
